A study of Mus musculus with 4 samples.

Results

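Adh1, Adh7, Aldh3a1, Ces1d, Cyp2f2, Mgst1 and Gsta4 encode enzymes that handle alcohols, aldehydes, esters and reactive compounds, and their transcripts were followed here through the mouse vaginal epithelium. They are 7 of the 25071 gene symbols in single-cell count matrices of ovariectomised and ovary-intact mice. The members were picked from the difference between these groups in the same matrices, so that difference is described below with no test. Tests were kept for differences between layers of the epithelium within a group, and for other genes of the pathways. The layers differed between the groups in their share of cells, so the layer tests are not independent of that choice. Of the 7 genes, 6 had more transcripts, as a share of all molecules counted, in both OVX libraries than in both WT libraries, and Gsta4 had fewer.

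Drop-seq captures single cells in droplets, barcodes their transcripts and counts each molecule once by its unique molecular identifier (UMI). The OVX group was made of C57BL/6 mice whose ovaries had been removed by surgery, and the WT group of ovary-intact C57BL/6 mice; the sources used here do not give ages, the time since surgery or the cycle stage of the WT mice. Each group has 2 libraries of dissociated vaginal epithelium, and each library is a pool of 5 mice. The series text calls the pools run in duplicate, so the spread between libraries of a group, and every p-value that rests on it, may be technical.

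The kept cells numbered 1573 and 1907 in the OVX libraries and 2979 and 1987 in the WT libraries, with median UMIs per cell of 435 and 738 against 1597 and 799. Markers of other cell types and signs of RNA quality moved with the groups. The median mitochondrial share of UMIs was 8.97% and 9.69% in OVX against 4.00% and 3.85% in WT, and Malat1, a nuclear RNA, made up 2.5% and 1.81% of all UMIs in OVX against 0.336% and 0.465% in WT. The 6 fibroblast markers summed to 210.3 and 193 counts per 1000000 UMIs (CPM, the level used throughout) in OVX, all detected, against 1.37 and 26.9 in WT, where Col1a1, Col3a1 and Lum were at 0 in library 1. The 11 immune markers summed to 175 and 183 in OVX against 98.4 and 106 in WT, with Cd3e at 0 in 1 library of each group, and the endothelial and smooth muscle lists stayed at or below 8.29. The part of these differences in the results below was not tested. All 6 epithelial markers were detected in every library. The progesterone receptor gene Pgr, a target of oestrogen, had 18.8 and 20.2 CPM in OVX against 149 and 96.9 in WT, in the direction of the labels. Over all pairs of libraries 37 barcodes were shared, of which 9 belonged to kept cells in both libraries.

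Alcohol dehydrogenases oxidise alcohols, retinol among them, to aldehydes or ketones, and aldehyde dehydrogenases carry aldehydes on to acids. Carboxylesterases split esters, cytochromes P450 oxidise foreign and endogenous compounds, and glutathione transferases couple reactive products to glutathione. In the vagina, oestrogen drives the epithelium to stratify and cornify, and after loss of the ovaries it thins.

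Each gene was placed on the mouse genome (GRCm38, the same assembly as mm10) with the GENCODE vM21 annotation, though the counting may have used another. Adh7 (chromosome 3, 138217760 to 138233382) and Adh1 (chromosome 3, 138260991 to 138290698) are neighbours on the plus strand, 27609 bases apart with no annotated gene between them, and each has 9 exons. Aldh3a1 lies on chromosome 11 (61207537 to 61218421, plus strand, 11 exons), Cyp2f2 on chromosome 7 (27119909 to 27133660, plus strand, 10 exons) and Ces1d on chromosome 8 (93166068 to 93197838, minus strand, 14 exons). Mgst1 is on chromosome 6 (138140316 to 138156755, plus strand, 5 exons) and Gsta4 on chromosome 9 (78182774 to 78209349, plus strand, 7 exons). Of the 50-base words in the last 500 bases of each transcript, where Drop-seq reads fall, 1.77% of those of Ces1d also occur in Ces1f or Ces1g, and 0% of those of the other 6 members occur in another gene. The 4 genes that overlap a member held between 0 and 19 UMIs in any library.

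RefSeq promoter windows (GRCm38.p6, from 250 bases before to 50 after the annotated start) matched 4 of the 7 members, all on the plus strand, and Mgst1 had 2 windows. Windows are shown for the 4 genes that had one, with 1 of the 2 windows of Mgst1. Aldh3a1, Ces1d and Gsta4 had none. Capitals mark matches to motifs searched on both strands: the oestrogen response element (GGTCA and TGACC with 3 bases of any kind between them), the nuclear receptor element AGGTCA, the antioxidant response core TGACNNNGC, the AP-1 site TGANTCA and the TATA box TATAAA.
Adh1, chr3:138277335-138277634, plus strand: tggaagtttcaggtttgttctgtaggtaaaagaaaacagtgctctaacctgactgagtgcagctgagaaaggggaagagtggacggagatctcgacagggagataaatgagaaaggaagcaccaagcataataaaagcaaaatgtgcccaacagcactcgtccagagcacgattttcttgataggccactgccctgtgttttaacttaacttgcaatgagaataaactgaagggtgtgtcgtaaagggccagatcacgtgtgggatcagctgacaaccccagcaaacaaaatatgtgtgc
Adh7, chr3:138217523-138217822, plus strand: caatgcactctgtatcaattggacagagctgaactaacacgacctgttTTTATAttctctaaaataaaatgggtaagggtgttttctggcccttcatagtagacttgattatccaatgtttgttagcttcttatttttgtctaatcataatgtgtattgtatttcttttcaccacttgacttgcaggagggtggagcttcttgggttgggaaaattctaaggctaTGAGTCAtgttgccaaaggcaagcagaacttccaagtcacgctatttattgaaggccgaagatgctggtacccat
Cyp2f2, chr7:27119705-27120004, plus strand: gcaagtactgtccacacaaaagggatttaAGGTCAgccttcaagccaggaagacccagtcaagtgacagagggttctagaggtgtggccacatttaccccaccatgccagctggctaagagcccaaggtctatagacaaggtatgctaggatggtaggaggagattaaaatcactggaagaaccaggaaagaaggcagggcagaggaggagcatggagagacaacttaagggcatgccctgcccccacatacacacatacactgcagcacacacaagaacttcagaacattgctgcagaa
Mgst1, chr6:138140277-138140576, plus strand: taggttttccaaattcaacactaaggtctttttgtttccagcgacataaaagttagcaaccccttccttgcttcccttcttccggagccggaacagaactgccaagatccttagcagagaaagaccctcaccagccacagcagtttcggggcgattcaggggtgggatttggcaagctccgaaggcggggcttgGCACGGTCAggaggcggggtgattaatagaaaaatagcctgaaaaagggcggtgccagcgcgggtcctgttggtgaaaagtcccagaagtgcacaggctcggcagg
The Adh7 window held an AP-1 match at position -25 from the start and a TATAAA match on the minus strand, read as TTTATA at -202, and the Cyp2f2 window held AGGTCA at -221. The Mgst1 window held the antioxidant core on the minus strand, read as GCACGGTCA at -56. The Adh1 window and the second Mgst1 window (chr6:138141337-138141636) held none of the letters searched, the oestrogen response element was in none of the 5 windows, and no match overlapped another. Over all 32851 promoter windows of the table, 7.81% held TGANTCA, 13.6% TATAAA, 16.3% AGGTCA, 12.4% TGACNNNGC and 0.0700% the oestrogen response element, so apart from the last the motifs are common. The Adh1 window and the second Mgst1 window start inside the GENCODE gene, which begins further upstream. The printed Mgst1 window starts before the GENCODE gene, but its antioxidant match lies inside that gene.

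Adh1, the class I alcohol dehydrogenase that oxidises ethanol and retinol, had 213 and 134 CPM in the OVX libraries (170 and 220 UMIs) against 1.03 and 0 in the WT libraries (6 and 0 UMIs). Transcripts were thus abundant enough to count in both OVX libraries and at the limit of detection in WT, where 3 UMIs correspond to 0.515 and 1.55 CPM. The means were 174 ± 55.4 in OVX and 0.515 ± 0.728 in WT (SD, n = 2 libraries each). The ratio of the pooled UMIs was 207, with a 95% counting interval of 94.3 to 568 that covers counting error only, as do all such intervals below. Its neighbour Adh7, the class IV enzyme of stomach and other epithelia, had 139 and 115 in OVX against 8.92 and 6.22 in WT, or 127 ± 16.6 and 7.57 ± 1.91. Adh7 was therefore detected in all 4 libraries, with a pooled ratio of 14.9 (11.4 to 19.9).

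Aldh3a1, an aldehyde dehydrogenase abundant in cornea and stomach that takes up aromatic and lipid-derived aldehydes, had 220.3 and 175 CPM in OVX against 52.7 and 38.9 in WT. The groups did not overlap, and the means of 198 ± 32.2 and 45.8 ± 9.75 gave a pooled ratio of 3.85 (3.36 to 4.42). Ces1d, a carboxylesterase that hydrolyses esters and triacylglycerol, had 126 and 114 in OVX (101 and 186 UMIs) against 0.686 and 0.518 in WT (4 and 1 UMIs). Like Adh1, it was at the limit of detection in WT, and its pooled ratio of 183 had a wide interval (77.5 to 568).

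Cyp2f2, the P450 known for activating naphthalene in mouse airway club cells, had 1170.3 and 634 CPM in OVX against 124 and 206 in WT. The OVX libraries differed from each other by more than for any other member, at 902 ± 379.6 against 165 ± 58.0 in WT, yet both lay above both WT libraries (pooled ratio 5.60, 5.20 to 6.03). Mgst1, a membrane-bound glutathione transferase and peroxidase, had 626 and 478 in OVX against 78.0 and 65.3 in WT, or 552 ± 105 and 71.7 ± 9.02. Its pooled ratio was 7.03 (6.37 to 7.77). Gsta4, the alpha-class transferase known for clearing the lipid aldehyde hydroxynonenal, went the other way, with 799.8 and 719.7 in OVX against 1014 and 1282 in WT. Both OVX libraries lay below both WT libraries, at 759.7 ± 56.7 against 1148 ± 189.5, and the pooled level in OVX was 0.690 of that in WT (0.656 to 0.726).

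The fit across all genes gave log2 fold changes of OVX over WT of 7.67 ± 0.74 (SE) for Adh1, 7.31 ± 0.55 for Ces1d, 3.88 ± 0.44 for Adh7, 2.80 ± 0.42 for Mgst1, 2.30 ± 0.49 for Cyp2f2, 1.96 ± 0.40 for Aldh3a1 and -0.74 ± 0.40 for Gsta4, given as a description. For all 7 members the OVX values lay wholly above or wholly below the WT values. Of all 11495 genes tested 50.3% likewise had groups apart (29.1% higher and 21.2% lower in OVX), and 5.11% were past an adjusted p of 0.05 by edgeR; since this contrast chose the members, nothing is read from their count. Together the 7 genes took 3294 and 2369 CPM in OVX against 1279 and 1599 in WT. Without Gsta4 the sums were 2495 and 1649 against 266 and 317, so that Gsta4 made up most of the WT sum. The cells that carried stromal markers in OVX, 10 and 21 per library, held between 0 and 7 UMIs of any member. For Mgst1 these came to 480.3 and 529 CPM, near its level in the whole libraries, and for Adh1 to 0 and 75.6 CPM. Without the immune and stromal gates the log2 fold change of Adh1 was 7.63 and that of Mgst1 2.79.

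**Figure D1:**
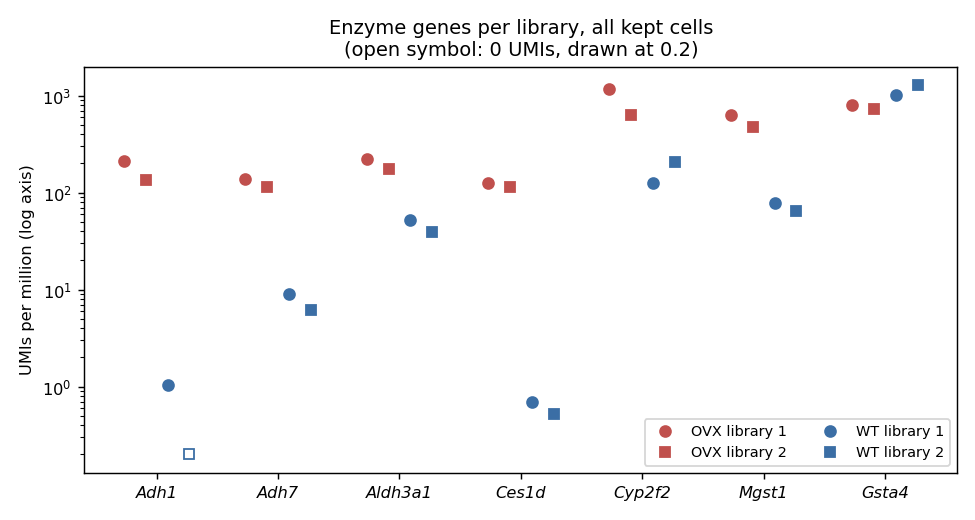
CPM of each enzyme gene on a log axis, 1 point per library (for each gene OVX in red on the left, WT in blue on the right; the open symbol is Adh1 at 0). The OVX points lie above the WT points for 6 genes, by far the most for Adh1 (213 and 134 against 1.03 and 0) and Ces1d (126 and 114 against 0.686 and 0.518), and below them for Gsta4 (799.8 and 719.7 against 1014 and 1282).

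Cells were sorted into layers by keratins and other markers that are not members: luminal (Krt8, Krt18 and others), suprabasal (Krt1, Krt10, Krt13 and others) and basal (Krt5, Krt14 and others). The gates held 5152 of the 8446 kept cells, 3135 cells fell in none, and 1490 cells lay within 0.1 of the margin that decides the gate. In the OVX libraries 523 and 674 cells were luminal, 26 and 28 suprabasal and 130 and 287 basal. In the WT libraries 776 and 689 were suprabasal and 1511 and 429 basal. The WT luminal gate held 23 and 56 cells. It had 7 and 6 of the 12 luminal markers, at a sum of 1559 and 1876 CPM against 386 and 349 in the WT basal gate, but 0 UMIs of Krt8, so no layer test is given for it. Krt8, itself a marker of the gate, had 272 and 279 CPM in the OVX luminal gate and 0 in both OVX basal gates. Basal markers did not part the OVX gates as sharply. They summed to 6960 and 7126 CPM in the luminal gate against 15461 and 13761 in the basal gate. Krt5 had 1986 and 2808 against 2597 and 3028, and Krt15 2479 and 1564 against 3397 and 2165. The WT gates were told apart by Krt10, with 5273 and 4005 in the suprabasal gate and 97.1 and 134 in the basal gate, while Krt14 was as high in the suprabasal gate (19891 and 18572) as in the basal gate (16606 and 17039). No doublet caller was run, so cells of mixed origin may remain.

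In OVX cells Mgst1, Gsta4, Adh1 and Cyp2f2 were higher in the luminal than in the basal gate. Mgst1 had 969 and 771 CPM in the luminal gates against 215 and 200.2 in the basal gates of the same libraries. Gsta4 had 1191 and 1089 against 399.6 and 298, and Cyp2f2 had 1469 and 835 against 676 and 531. For these 3 genes both luminal values lay above both basal values. In a fit with the library as a block, Mgst1 was 4.20-fold higher in the luminal gate (log2 difference 2.07 ± 0.19, edgeR adjusted p = 9.29e-24) and Gsta4 3.59-fold (1.84 ± 0.18, edgeR adjusted p = 1.82e-22). Cyp2f2 was 1.84-fold higher (0.88 ± 0.15, edgeR adjusted p = 1.06e-06). These 3 calls held with either OVX library left out, and were lost in a fit with no library block (edgeR adjusted p = 0.0708, 0.10 and 1).

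Adh1 had 342 and 205 CPM in the OVX luminal gates against 169 and 57.2 in the basal gates. The difference was in the same direction within each library (log2 1.59 ± 0.32, edgeR adjusted p = 3.91e-05), but the call was lost without OVX library 2 (log2 1.21, edgeR adjusted p = 0.629), with DESeq2 (adjusted p = 0.126) and with no library block (edgeR adjusted p = 1). Ces1d had 188 and 165 in the luminal gates against 46.1 and 94.0 in the basal gates, and this difference did not pass (log2 1.10 ± 0.35, edgeR adjusted p = 0.0573). Aldh3a1 had 278 and 210.3 against 215 and 123 (log2 0.72 ± 0.27, edgeR adjusted p = 0.148) and Adh7 had 131 and 114 against 76.8 and 89.9 (log2 0.49 ± 0.37, edgeR adjusted p = 0.710). Of the members 4 of 7 passed as higher, beside 2.36% of the 6824 genes tested that were higher and 0.821% that were lower. The luminal gate held 33.2% and 35.3% of kept OVX cells against 0.772% and 2.82% of WT cells. For the suprabasal gate the shares were 1.65% and 1.47% against 26.0% and 34.7%. The choice of members by OVX against WT is therefore not independent of the layer contrasts. Nothing is read from the counts of members called in them.

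The OVX suprabasal gate rested on few cells, and 3 UMIs there correspond to 189.6 and 98.3 CPM. Its basal markers summed to 11693 and 9273 CPM against 15461 and 13761 in the OVX basal gate. The basal keratin Krt5, however, was higher in it, at 4108 and 5439 CPM against 2597 and 3028. Krt1 had 3 and 6 UMIs in the suprabasal gate and Krt10 had 3 and 13. Gsta4 had 1580.1 and 1409 CPM in this gate (25 and 43 UMIs) against 399.6 and 298 in the basal gate, a log2 difference of 1.76 ± 0.28 (edgeR adjusted p = 6.46e-08). Mgst1 had 822 and 754 (13 and 23 UMIs) against 215 and 200.2, a log2 difference of 1.48 ± 0.36 (edgeR adjusted p = 0.00389). For both genes the suprabasal value lay above the basal value in each library. The Mgst1 call was lost without OVX library 1 (adjusted p = 0.0858) and without OVX library 2 (adjusted p = 0.704) and the Gsta4 call without OVX library 2 (adjusted p = 0.351), and both with no library block (adjusted p = 0.498 and 0.20), all by edgeR. Adh7 had 506 and 262 against 76.8 and 89.9, on 8 UMIs in each suprabasal sum (log2 1.55 ± 0.57, edgeR adjusted p = 0.199), and passed when the margin between gates was set to 0 (edgeR adjusted p = 0.0036) and with DESeq2 (adjusted p = 0.0334). Adh1, Aldh3a1, Ces1d and Cyp2f2 did not pass, with log2 differences of 1.01, 0.38, -0.05 and 0.59, and that of Adh1 was -1.05 without OVX library 2. Thus 2 of 7 members were called higher, beside 0.484% of all genes that were higher and 1.17% that were lower. This contrast depends on the scaling: the median of all genes was -0.45 on the log2 scale with TMM and -0.18 with relative log expression, a shift of 0.27, and the share of calls that were higher was 29.2% and 56.0%.

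Within WT, Gsta4 and Cyp2f2 were higher in the suprabasal than in the basal gate. Gsta4 had 2112 and 2188 CPM in the suprabasal gates against 416 and 534 in the basal gates. The suprabasal level was 5.06-fold the basal level (log2 2.34 ± 0.11, edgeR adjusted p = 6.07e-94). Cyp2f2 had 195 and 268 against 74.2 and 114, a 2.76-fold difference (log2 1.47 ± 0.15, edgeR adjusted p = 1.11e-20). Both calls held with either WT library left out, and that of Cyp2f2 was lost with no library block (edgeR adjusted p = 0.289). The WT immune gate, 63 and 21 cells, held 1073 and 2363 CPM of Gsta4 and also 2104 and 2893 of the suprabasal keratin Krt10, and the part of free RNA or mixed cells in these values was not tested.

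The other members were low in both WT gates. Mgst1 had 85.4 and 64.8 CPM in the suprabasal gates against 60.6 and 62.5 in the basal gates (log2 0.51 ± 0.18, edgeR adjusted p = 0.0300), a call lost without either WT library (adjusted p = 1 and 0.280) and held in 3 of 11 alternatives. Ces1d had 4 and 1 UMIs in the suprabasal gates and 0 in the basal gates. Aldh3a1 had 45.1 and 25.9 against 58.5 and 49.6 (log2 -0.36 ± 0.22, edgeR adjusted p = 0.279), the only member whose WT values were lower in the suprabasal gate of each library. Adh7 had 10.8 and 8.65 against 7.66 and 2.15 (log2 0.76 ± 0.50, edgeR adjusted p = 0.327), and Adh1 had 5 and 0 UMIs against 1 and 0. Ces1d and Adh1 entered the fit through their OVX counts, so no test is given for them in WT. Of the other 5 members, Gsta4, Cyp2f2 and Mgst1 were called higher, beside 9.86% of all genes that were higher and 10.8% that were lower. Whether the layer differences of a gene differ between OVX and WT was not tested.

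**Figure D2:**
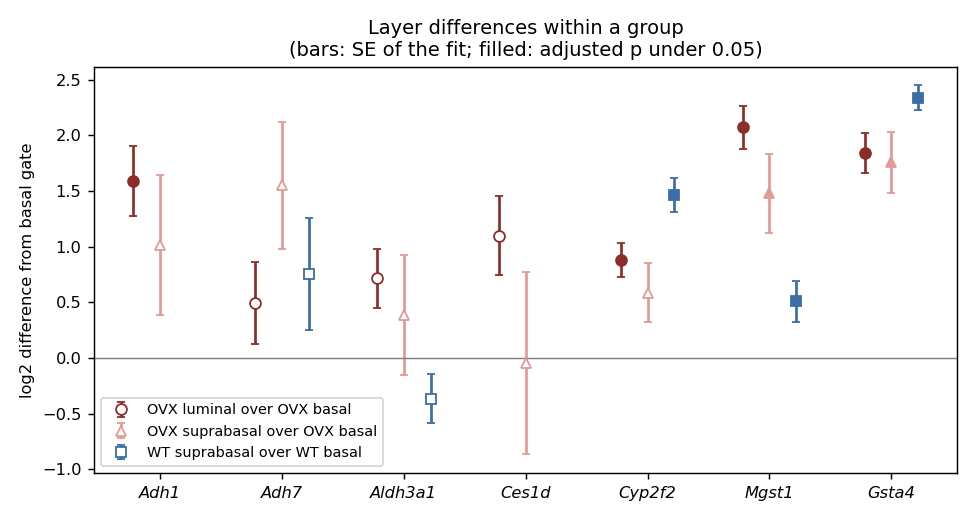
Log2 difference of each enzyme gene from the basal gate of the same group, with the SE of the edgeR fit as bars; filled symbols have an adjusted p under 0.05. Gsta4 is filled in all 3 contrasts (1.84, 1.76 and 2.34), Mgst1 in all 3 and Cyp2f2 in the OVX luminal and the WT suprabasal contrast; WT values of Adh1 and Ces1d, with 6 and 5 UMIs in all, are not drawn.

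Set side by side, the basal and suprabasal gates of the groups differed in the direction seen in whole libraries, as a description of the contrast by which the members were chosen. In the basal gates Cyp2f2 had 676 and 531 CPM in OVX against 74.2 and 114 in WT, a pooled ratio of 7.04 (5.78 to 8.56). Adh7 had 76.8 and 89.9 against 7.66 and 2.15 (12.6, 6.98 to 23.1), Mgst1 215 and 200.2 against 60.6 and 62.5 (3.34, 2.48 to 4.45) and Aldh3a1 215 and 123 against 58.5 and 49.6 (2.48, 1.75 to 3.46). The basal OVX values of these 4 genes therefore lay above the basal WT values in every library. Adh1 had 25 UMIs in the OVX basal gates and 1 in the WT basal gates (pooled ratio 269, 44.1 to 11052), and Ces1d had 26 and 0, at least 93.3-fold higher in OVX against a floor of 3 UMIs over the WT group. Gsta4 was lower in OVX in the basal and suprabasal gates, with 399.6 and 298 against 416 and 534 in the basal gates (0.738, 0.596 to 0.905) and 1580.1 and 1409 against 2112 and 2188 in the suprabasal gates (0.688, 0.533 to 0.873). In the luminal gates it was not, with 1191 and 1089 in OVX against 1194 and 665 in WT (1.27, 0.984 to 1.66). In WT library 1, however, 1 cell held 18 of the 36 Gsta4 UMIs of that gate. Suprabasal markers in the WT luminal gate summed to 8660 and 1781 CPM, against 1559 and 1876 for luminal markers. The luminal gates of the groups may therefore not hold the same layer, which limits every comparison between them. For the other members the WT luminal gate held 0 to 11 UMIs per library. Cyp2f2 had 1469 and 835 CPM in the OVX luminal gates against 199 and 261 in the WT luminal gates (4.43, 2.75 to 7.64), and Mgst1 969 and 771 against 66.4 and 190.0 (6.04, 3.27 to 12.6).

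**Figure D3:**
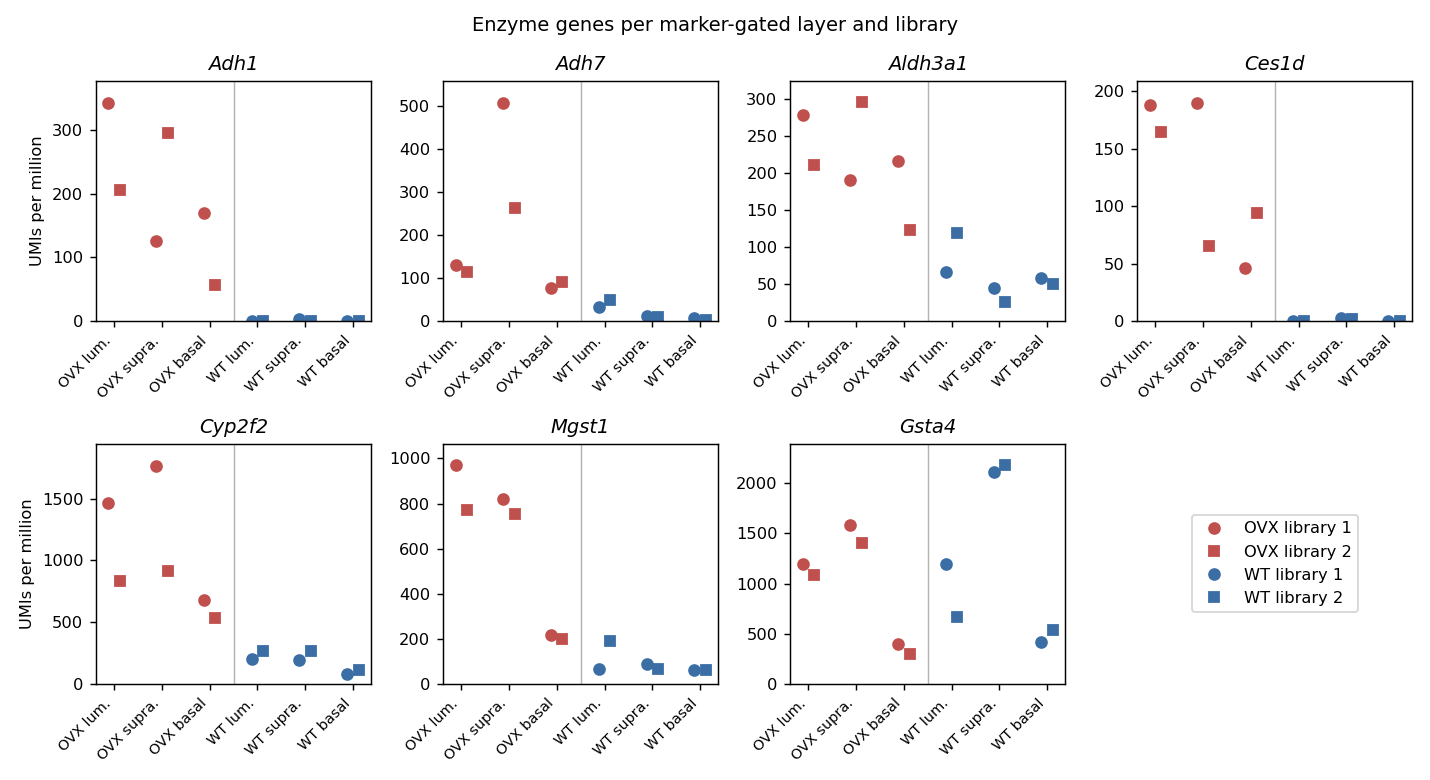
CPM of each enzyme gene in the layer gates, 1 point per library (circles library 1, squares library 2; OVX gates left of WT gates). Mgst1 in OVX is at 969 and 771 in the luminal gates and at 215 and 200.2 in the basal gates, and Gsta4 in WT is at 2112 and 2188 in the suprabasal gates and at 416 and 534 in the basal gates; the points of the OVX suprabasal gate rest on 2 to 43 UMIs, and those of the WT luminal gate on 0 to 36.

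Of the UMIs of a member in an OVX library, the luminal gate held 57.8% and 60.5% for Mgst1, 60% and 57.3% for Adh1, 55.6% and 56.7% for Gsta4, 55.4% and 54.3% for Ces1d, 46.8% and 49.4% for Cyp2f2, 47.2% and 45.1% for Aldh3a1 and 35.1% and 37.0% for Adh7. The same gate held 37.3% and 37.5% of all UMIs of these libraries, a share close to that of Adh7 and below that of the other 6. The suprabasal gate held 7.21% and 4.23% of the Adh7 UMIs (8 UMIs in each library) against 1.98% and 1.86% of all UMIs, and the basal gate 4.50% and 11.6% against 8.14% and 15%. A UMI of Cyp2f2 was seen in 44.6% (40.2 to 48.9, exact 95% interval) and 38.7% (35.0 to 42.5) of OVX luminal cells. In the immune gates of the same libraries, which may hold free RNA and mixed cells, Cyp2f2 was seen in 2 of 15 and 1 of 25 cells. Median UMIs were 503 and 766 in the luminal gates and 497 and 586 in the immune gates. Luminal markers summed to 1262 and 0 CPM in the immune gates. Mgst1 was seen in 1 of 15 (7 UMIs) and 0 of 25 immune cells and Gsta4 in 3 of 15 and 1 of 25. Adh1 was seen in 2 of 15 and 0 of 25, against 14.0% and 14.2% of luminal cells. Ces1d was seen in 1 of 15 and 0 of 25, Aldh3a1 in 1 of 15 and 1 of 25, and Adh7 in none. The part of free RNA or mixed cells was not tested.

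After thinning each cell to 400 UMIs, Cyp2f2 was seen in 37.9% and 23.0% of OVX luminal cells and in 22.5% and 18.1% of OVX basal cells, which left out 159 and 8 luminal and 50 and 6 basal cells of lower depth. Mgst1 was seen in 23.4% and 21.3% of thinned luminal cells and 10.0% and 7.47% of thinned basal cells (30.2% and 34.9%, and 8.46% and 15%, before thinning). Gsta4 was seen in 29.1% and 29.7% of luminal and 15% and 10.3% of basal cells after thinning (34.6% and 47.2%, and 18.5% and 20.6%, before). In WT, thinned shares for Gsta4 were 52.6% and 52.0% in the suprabasal gate, 12.4% and 19.3% in the basal gate and 25.4% and 40.0% in the immune gate (87.5% and 73.1%, 45.5% and 36.1%, and 68.3% and 47.6% before). UMIs of at least 2 of the 7 genes were found in 36.0% and 27.3% of thinned OVX luminal cells and in 16.3% and 9.61% of thinned OVX basal cells. In WT the shares were 6.57% and 7.22% of suprabasal and 1.32% and 1.65% of basal cells.

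Across 16 sums of a gate in a library, on log2(CPM + 10), the 15 pairs of members without Gsta4 had Pearson correlations between 0.74 and 0.92 (median 0.81), and the 6 pairs with Gsta4 between -0.13 and 0.34 (median 0.20). The sums share libraries, depth and the difference between OVX and WT, so these are descriptions. Of the 7799 genes ranked, those closest to the mean profile of the members were the ribosomal protein gene Rpl14 (r = 0.911), Lgi2 (0.905), Gm2694 (0.901), Ltbp2 (0.900), which encodes a protein of the extracellular matrix, Phlda1 (0.889) and the membrane-anchored surface protein gene Ly6e (0.884). Lgi2 had 81.4 and 84.9 CPM in OVX against 4.29 and 5.18 in WT, and Ly6e 986 and 799.1 against 384 and 513.

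The wider pathways were taken as 8 lists with 208 other genes, of which 184 were in the matrices and 124 were tested between OVX and WT. Past the threshold were 11 genes higher and 5 lower in OVX (12.9% of those tested, beside 5.11% of all genes, 2.58% higher and 2.52% lower), and 108 did not pass. The median log2 fold change was -0.21, beside -0.03 for all genes. The lists thus held changes in both directions and did not shift as a whole towards OVX. Leaving out 1 library moved their number of calls over 9 to 30, with 11 without OVX library 1, 9 without OVX library 2 and 30 without either WT library.

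Among 21 tested cytochromes P450, flavin monooxygenases and their partners, 3 rose and 18 did not pass (median -0.03). Those that rose included the flavin monooxygenases Fmo1 and Fmo2, enzymes that oxidise nitrogen and sulfur in foreign compounds. Fmo2 had 1026 and 933 CPM in OVX against 4.63 and 3.11 in WT (log2 7.77 ± 0.55, edgeR adjusted p = 0.00263) and Fmo1 45.1 and 40.9 against 0.858 and 1.04 (5.34 ± 0.54, edgeR adjusted p = 0.00373). Both calls held with each library left out.

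Among 25 tested genes of glutathione transfer and synthesis, 3 rose, 1 fell and 21 did not pass (median -0.20). The transferases Gstt1 (27.5 and 23.8 in OVX against 2.23 and 3.63 in WT; log2 3.05 ± 0.53, edgeR adjusted p = 0.0187), Gsta3 (30.0 and 25.0 against 4.63 and 2.07; 2.76 ± 0.54, edgeR adjusted p = 0.0298) and Gstt2 (52.6 and 34.8 against 5.49 and 10.4; 2.36 ± 0.50, edgeR adjusted p = 0.0376) rose. Gsto1, the omega-class transferase that reduces rather than conjugates, fell, with 521 and 451 against 1721 and 1523 (log2 -1.88 ± 0.41, edgeR adjusted p = 0.0424). The Gstt2 call was lost without OVX library 1 (adjusted p = 0.0843), and that of Gsto1 without OVX library 1 or 2 (adjusted p = 0.416 and 0.479). Transferases thus changed in both directions.

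Of 10 tested aldehyde dehydrogenases 1 rose, 1 fell and 8 did not pass (median -0.17). Aldh6a1, the mitochondrial enzyme of valine breakdown, had 55.1 and 51.3 CPM in OVX against 11.5 and 13.5 in WT (log2 1.96 ± 0.40, edgeR adjusted p = 0.0341; 0.109 without OVX library 1 and 0.210 without OVX library 2). Aldh3b2, a relative of Aldh3a1, had 3.76 and 3.05 against 51.5 and 24.9 (log2 -3.65 ± 0.61, edgeR adjusted p = 0.0167). Aldh2, the mitochondrial acetaldehyde dehydrogenase and the gene of the list with the highest mean CPM over the 4 libraries, a count of molecules not set against length, had 305 and 339.7 against 156 and 90.7 and did not pass (edgeR adjusted p = 0.164). Of 20 alcohol dehydrogenases and carbonyl reductases 1 fell and 19 did not pass (median -0.35). The 1 was the retinal reductase Rdh12, with 22.5 and 9.16 against 103 and 158 (log2 -3.25 ± 0.54, edgeR adjusted p = 0.0162; 0.137 without OVX library 2). Cbr2 had the highest mean CPM of its list, with 717 and 585 in OVX against 549 and 639 in WT (edgeR adjusted p = 0.991).

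Of 14 tested esterases 1 rose and 13 did not pass (median 0.03). It was Ces1e, of the same gene family as Ces1d, with 16.3 and 19.5 CPM in OVX (45 UMIs in all) against 0.172 and 0 in WT (1 UMI), a pooled level 143 times that of WT (24.5 to 5787 by counting error; edgeR adjusted p = 0.0066). The esterase of highest mean CPM over the 4 libraries, Esd, below Ces2g in OVX, had 82.6 and 51.9 against 148 and 238 (edgeR adjusted p = 0.0794). Of 8 genes of glucuronidation and sulfation 1 rose and 7 did not pass (median -0.87): Ugt2b34, with 22 UMIs in OVX and 0 in WT, at least 23.4-fold higher against 3 UMIs over the WT group (edgeR adjusted p = 0.0152). Ces1e and Ugt2b34 were not tested without OVX library 2, since they then missed the filter on low counts. Ugdh, which makes the glucuronic acid donor, had 45.1 and 40.3 against 112 and 141 (edgeR adjusted p = 0.0502).

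Of 15 tested regulators 2 rose, 1 fell and 12 did not pass (median -0.05). Foxa2, a forkhead factor of endoderm and glandular epithelia, had 33.8 and 30.5 CPM in OVX against 1.03 and 0 in WT (edgeR adjusted p = 0.00997). Ppara, a nuclear receptor for fatty acids, had 18 UMIs in OVX and 6 in WT (edgeR adjusted p = 0.0484), a call lost without OVX library 1 (adjusted p = 0.426), WT library 1 (0.0898) or WT library 2 (0.109), and without OVX library 2, where it missed the filter. Tiparp, an ADP-ribosyltransferase induced by the aryl hydrocarbon receptor, had 42.6 and 33.6 against 209 and 187 (log2 -2.53 ± 0.41, edgeR adjusted p = 0.0143; 0.143 without OVX library 1 and 0.240 without OVX library 2). Nfe2l2, which encodes NRF2 and had the highest mean CPM of its list, had 334 and 393 against 230.3 and 225 (edgeR adjusted p = 0.491). Of 11 other targets of NRF2 1 fell and 10 did not pass (median -0.75). G6pdx, the first enzyme of the pentose phosphate pathway, had 28.8 and 26.9 against 106 and 115 (log2 -2.12 ± 0.39, edgeR adjusted p = 0.0247; 0.281 without OVX library 1 and 0.325 without OVX library 2), and 5.54% of the words at its end also occur in G6pd2.

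**Figure D4:**
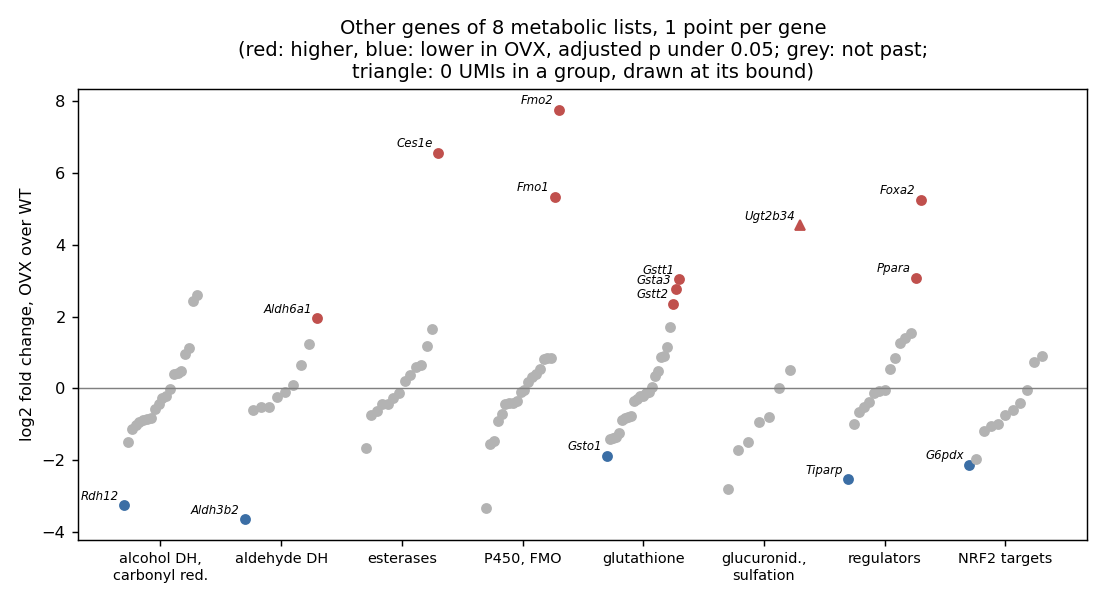
Log2 fold change of OVX over WT for other pathway genes tested, 1 point per gene in 8 lists; red and blue points have an edgeR adjusted p under 0.05. Fmo1, Fmo2, Ces1e and Foxa2 stand far above the other genes of their lists and Rdh12 and Aldh3b2 below them, while most points lie around 0; Ugt2b34, with 0 UMIs in WT, is drawn at its lower bound.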

How the data were processed

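Drop-seq libraries of vaginal epithelium, 2 OVX and 2 WT, were analysed from the deposited UMI counts per gene and barcode, which the authors left unnormalised. The submitters' processing notes name mm10 and Seurat 2; the aligner, annotation and use of strand were not given in the sources used here. Totals were 991112 and 1684967 UMIs in OVX and 5845107 and 1934634 in WT. Of 10000 barcodes, 8446 were kept as cells (200 genes or more, mitochondrial UMIs 20% at most). The other barcodes numbered 1427 and 93 in OVX and 21 and 13 in WT.

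Cells with at least 2 UMIs over immune or stromal markers went to those gates. Others went to the layer with the highest mean z-scored log expression of its markers, if above 0 and ahead by 0.2. UMIs were summed per library, or per gate and library with at least 20 cells, since cells are not replicates, and tested with edgeR 4.0.16 in R 4.3.3 (TMM, filterByExpr, quasi-likelihood F-test, Benjamini-Hochberg over all genes, threshold 0.05). The layer fit used 12 sums with the library as a block, which leaves 4 residual degrees of freedom. The F-test adds spread pooled over all genes, and the very small p-values rest mainly on that pooled spread. They should not be read as the spread of a gene between 2 libraries. The p-values of the layer fit also leave out spread that the layers of a library share. Levels are CPM. Intervals are exact and cover counting error only. Tests were checked on simulated data. DESeq2 1.42.0 and limma 3.58.1 were alternatives.

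The members and lists were chosen with earlier results of these data known. Other genes are named if among the 4 largest calls per list and direction, at the highest level of a list, or among the 6 closest to the members' mean profile; 1 such gene is not reported here. 94.1% of symbols matched GENCODE vM21.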

Additional observations from a re-analysis of the deposited data

How the results depend on the processing

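Of the recomputed log2 fold changes of members between OVX and WT, 94 moved by less than the spread between libraries, 11 moved by more, and none changed sign; that of Adh1 was 10.9 without WT library 1, since the other WT library held 0 of its UMIs. Replicate numbers are not stated to pair libraries, and deviations of same-numbered libraries correlated at -0.568 across genes. The 587 genes past the threshold between OVX and WT became 517 with a replicate block, 3489 with crossed numbers (chosen after seeing the data), 1356 with no filter on low counts and 308 to 1884 with 1 library left out (384 without OVX library 1, 308 without OVX library 2, 1621 without WT library 1 and 1884 without WT library 2). The 16 other pathway genes became 14 with the block, 52 crossed, 31 unfiltered and 9 to 30 with 1 library left out. Without composition normalisation the median of all genes moved by 0.14 on the log2 scale.

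For the layers, the 217 genes past the threshold in the OVX luminal contrast became 79 with DESeq2, 23 with no replicate block and 57 to 178 with 1 library left out. The 113 of the OVX suprabasal contrast became 75 with relative log expression, 62 with DESeq2, 14 with no replicate block and 32 to 125 with 1 library left out; a gate margin of 0.4 or a minimum of 500 UMIs left fewer than 20 cells in a gate. The 1410 of the WT contrast became 347 with DESeq2, 51 with no replicate block and 198 to 1701 with 1 library left out. The cause was not tested. Of the members' called layer differences, that of Gsta4 in WT held with no library block. The others did not, at edgeR adjusted p of 0.0708 or more. Of the recomputed member differences, 186 kept their side of the threshold, 28 lost and 3 gained a call, and none was called in the opposite direction. These counts include Adh1 and Ces1d in WT, for which no test is given above. There Adh1 kept its side in 11 of 11 alternatives and Ces1d in 4 of 11. Low counts limit Adh1 and Ces1d in WT and every OVX suprabasal value.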

Other observations

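Other genes of the 8 lists also differed between layers within a group. Their layer calls were not followed gene by gene through the alternative settings. With no library block, calls over all genes fell from 217 to 23 in the OVX luminal contrast. They fell from 113 to 14 in the OVX suprabasal and from 1410 to 51 in the WT suprabasal contrast. In OVX, 8 genes were higher and 1 lower in the luminal than in the basal gate of 83 pathway genes tested, with the library as a block, beside 2.36% of all genes higher and 0.821% lower. Fmo2 had 1452 and 1316 CPM in the luminal gates against 707 and 715 in the basal gates (log2 1.00 ± 0.14, edgeR adjusted p = 5.71e-10). Cbr2, a carbonyl reductase (log2 1.07 ± 0.17, edgeR adjusted p = 1.09e-07), and Rdh10, a retinol dehydrogenase (log2 2.77 ± 0.55, edgeR adjusted p = 3.98e-05), were also higher, and Fmo1, Ces2g, Taldo1 and Foxa2 were among the others. Gclm, the modifier subunit of glutamate-cysteine ligase in glutathione synthesis, was lower (log2 -0.86 ± 0.17, edgeR adjusted p = 1.91e-05).

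In WT, 19 of the 83 genes were higher and 8 lower in the suprabasal than in the basal gate, beside 9.86% and 10.8% of all genes, so the count of lower genes is near the share over all genes. Gsto1 (log2 1.32 ± 0.10, edgeR adjusted p = 1.57e-34) and Aldh3b2 (log2 2.78 ± 0.24, edgeR adjusted p = 4.51e-28) were higher, as was Por, the electron donor of microsomal P450 enzymes (log2 0.96 ± 0.19, edgeR adjusted p = 4.42e-06). Gclm was lower here too (log2 -1.38 ± 0.12, edgeR adjusted p = 6.36e-29), as was Ugdh (log2 -1.28 ± 0.16, edgeR adjusted p = 3.05e-13). In the OVX suprabasal gate, which rests on 26 and 28 cells, 2 pathway genes were lower than in the basal gate, Gclm (log2 -2.71 ± 0.45, edgeR adjusted p = 3.86e-07) and Gstm1 (log2 -2.46 ± 0.70, edgeR adjusted p = 0.0343), beside 1.17% of all genes lower; this contrast depends on the scaling, with 29.2% of calls higher by TMM and 56.0% by relative log expression. Whether these layer differences differ between OVX and WT was not tested.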
